A study of Mus musculus with 6 samples.

Results

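The genes described here build and maintain the primary cilium or are known from cystic kidney disease. They were chosen by gene name as numbered intraflagellar transport (Ift), Bardet-Biedl (Bbs) and nephronophthisis (Nphp) genes, plus 20 named genes such as Pkd1, Pkd2, Pkhd1, Kif3a, Cep290 and Bicc1. The choice gave 42 genes of the 21553 with values. They were measured in kidneys of mouse embryos at E13.5, in mid-gestation. In the first group were 3 embryos homozygous for a Fat4 mutation (Fat4-/-), and in the second 3 wildtype littermates (Fat4+/+). The strain was given as C57BL6/6 after 6 backcrosses, and all embryos came from 1 pregnant female. Each library was made from both kidneys of 1 embryo, dissected largely free of the ureter, so that ureteric bud, condensing mesenchyme and stroma are mixed in each value. The Fat4 loss was not limited to a cell type by any Cre driver that the labels name.

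The primary cilium is a microtubule-based antenna on most cells of the kidney. Kinesin-2 carries cargo outward on IFT-B particles, IFT-A particles and dynein-2 bring it back, and the BBSome moves membrane proteins in and out. A transition zone at the cilium base acts as a gate, and the polycystins act as a receptor and channel complex in the ciliary membrane. Mutations in these genes cause polycystic kidney disease, nephronophthisis, Bardet-Biedl syndrome and related disorders in humans. Mice without Fat4, a giant atypical cadherin, develop cystic kidneys later in gestation than the stage studied here. The comparison asks whether cilium and cyst genes already differ at E13.5.

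Many ciliary genes carry an X-box, an inverted repeat bound by Rfx transcription factors, so the promoters were searched for it as a feature that the choice of genes did not use. RefSeq windows (GRCm38.p6, 250 bases before to 50 after each start) were found for 33 of the 42 genes. The letters GTTGCC, the core of the X-box, on either strand, lay in the windows of 12 of these 33 genes (36.4%) and in those of 14.1% of the 27025 genes in the table. A longer form of the X-box, GTTNCC and then GGNAAC with NN between them, on either strand, lay in 1 of the 33 (3.03%), Mks1, and in 0.529% of all genes. The match in Mks1 contains the core. Other spacings and looser forms were not searched, and in the downstream Ift57 stretch below, GGTAAC follows the core after 1 base. The windows of Ttc21b, Bbs12 and Pkd2, which are described below, held neither, and Bicc1 is not in the table. These are descriptions of the letters in the windows, with no test, and base composition was not matched. The 13 stretches around GTTGCC are shown to let the letters after the core be compared, on the strand that spells it, with the match in capitals (for Mks1 the longer motif):
Arl13b (chr16:62847202-62847227, - strand): gctccaGTTGCCtagttaccagagcc
Bbs1 (chr19:4906607-4906632, - strand): gagctgGTTGCCaaggcgacgcctgg
Bbs5 (chr2:69647207-69647220, + strand): cggcgcGTTGCCtt
Cep164 (chr9:45828617-45828642, + strand): cggggtGTTGCCctgcagcgaccagc
Ift140 (chr17:25015963-25015988, - strand): cgcgagGTTGCCgtcacaacacgccc
Ift172 (chr5:31291095-31291120, - strand): actcacGTTGCCtgtgcgtcagcggt
Ift27 (chr15:78174071-78174096, - strand): atgatgGTTGCCaggagcctgtttgg
Ift57, upstream (chr16:49699201-49699226, + strand): ggtctgGTTGCCgtggtgaccggctg
Ift57, downstream (chr16:49699228-49699253, + strand): cctgcgGTTGCCtggtaacggtgggg
Ift88 (chr14:57424078-57424103, - strand): ccagccGTTGCCaggcgcgactccaa
Kif3a (chr11:53567265-53567290, + strand): gcaggcGTTGCCccagtctagcgtcc
Mks1 (chr11:87853185-87853210, + strand): gtctccGTTGCCAGGGGAACgaggca
Nphp4 (chr4:152478137-152478162, + strand): atcccgGTTGCCagctgatgttgggc

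The values are cRPKM, which are read densities per kilobase scaled to library size and then corrected, so levels can be compared between genes per length. A library's cRPKM summed to between 473695 and 503223. Fat4 itself averaged 7.50 ± 0.310 cRPKM in Fat4-/- kidneys and 16.4 ± 0.634 in Fat4+/+ kidneys (SD, n = 3 each), so the libraries separate by their labels. The Y-linked genes Uty, Ddx3y, Eif2s3y and Kdm5d summed to 69.6 cRPKM in mutant embryo 1, to 0.08 and 0.15 in mutant embryos 2 and 3, and to 65.3 to 73.0 in the wildtype embryos, so sex was uneven between the genotypes. With a Y-linked score as a covariate, the genotype term therefore rests almost only on mutant embryo 1 against the wildtype embryos. Such a fit cannot separate sex from genotype, and only its fold changes are given for single genes. Markers fixed for the tissue were present, with Six2, Eya1, Foxd1, Cdh1 and Epcam above 20 cRPKM in every library. The podocyte marker Nphs1 stayed at or below 0.350 cRPKM. Of 19 motile cilium genes 14 are in the table, and 7 of those were under 0.5 cRPKM in every library.

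None of the 41 cilia and cystic kidney genes high enough to test differed between Fat4-/- and Fat4+/+ kidneys at the threshold used. A gene was tested where its mean reached 1 cRPKM, with limma on log2(cRPKM + 1) and Benjamini-Hochberg adjustment over 12315 genes, and was called at an adjusted p under 0.05. Of all tested genes 1.43% were called (0.552% higher and 0.877% lower in mutant kidneys), a share at which a set of 41 would hold few calls or none. The smallest adjusted p among the 41 was 0.0853. Unadjusted p was under 0.05 for 6 of them, or 14.6%, against 13.0% of all tested genes. Of these, 2 were higher in mutant kidneys (4.88%, against 5.08%) and 4 lower (9.76%, against 7.97%). Mutant and wildtype values did not overlap for 9 of the 41 (22.0%, against 18.2% of all tested genes). In this count 3 were higher (7.32%, against 7.23%) and 6 lower (14.6%, against 11.0%). These shares lie near those of the whole table.

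The fold changes were small. The median log2 fold change, here and below the mutant minus the wildtype mean of log2(cRPKM + 1), was -0.01 over the 41 genes and -0.01 over all tested genes, and 17 of the 41 lay above 0 (41.5%, against 43.2%). The ratio of mean cRPKM lay between 0.9 and 1.1 for 35 of the 41 (85.4%, against 82.8% of all tested genes). Below 0.9 were Ttc21b, Bicc1, Cep290, Glis3 and Pkhd1, the last too low to test, and above 1.1 were Bbs12 and Ift27. The genes also varied little between embryos of 1 genotype. Their median coefficient of variation was 4.03% in mutant and 3.50% in wildtype kidneys, against 4.94% and 4.44% over all tested genes. At a mean of 0.918 to 29.0 cRPKM they were of middling abundance, with a median of 9.54 cRPKM over the tested 41 against 13.6 over all tested genes.

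**Figure D1:**
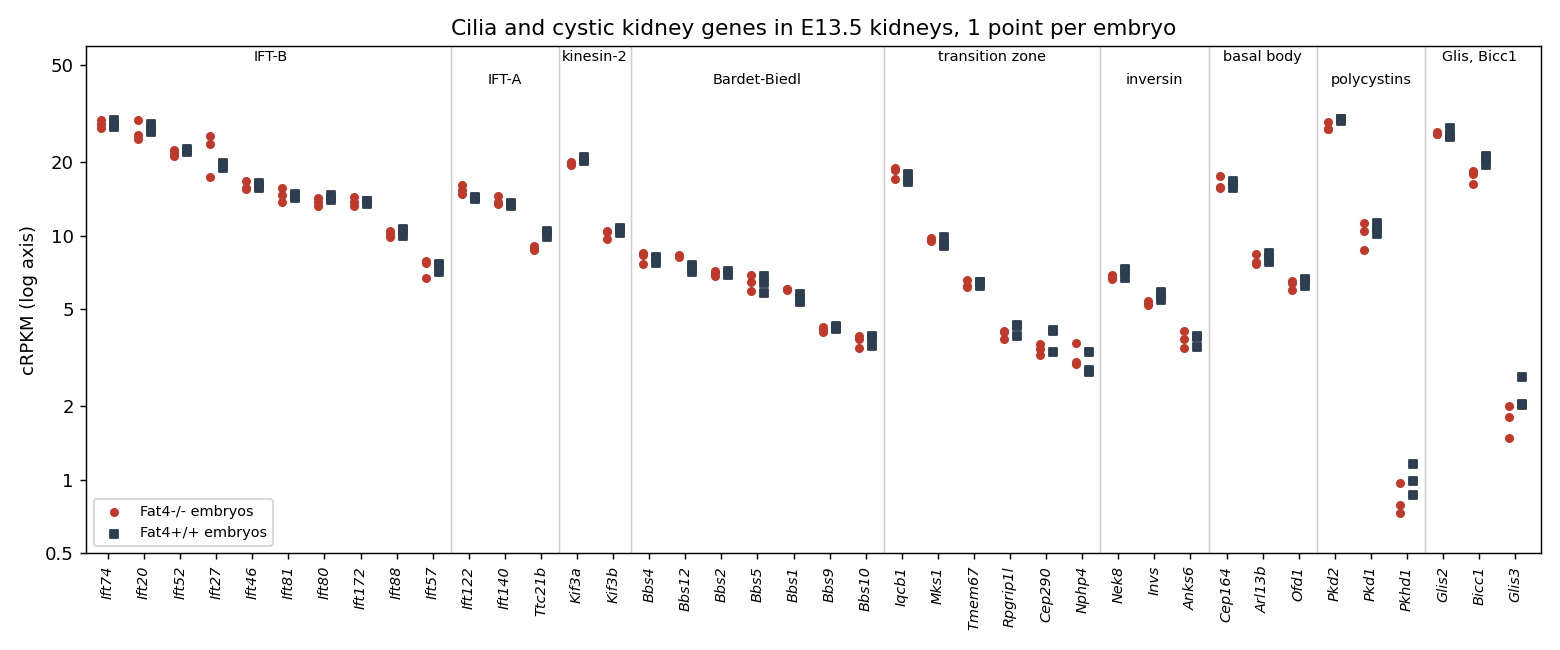
Level of 40 of the 42 genes in cRPKM (log axis), 1 point per embryo, with Fat4-/- embryos as red circles and Fat4+/+ embryos as dark squares, grouped by role. The 2 genotypes lie on each other for most genes, from Pkd2 at 28.0 and 29.9 cRPKM in mutant and wildtype kidneys to Pkhd1 at 0.830 and 1.01.

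**Figure D2:**
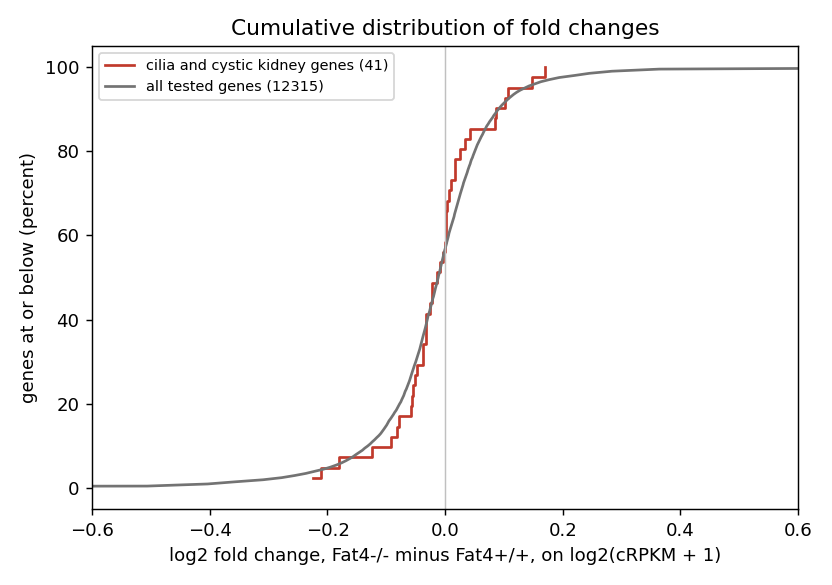
Cumulative percent of genes (vertical axis) at or below a log2 fold change of Fat4-/- minus Fat4+/+ (horizontal axis), for the 41 tested cilia and cystic kidney genes in red and all 12315 tested genes in grey. Both curves pass their midpoint near -0.01.

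The IFT-B genes, which make the particle for outward transport, had 10 members in the table, and none was called in either direction. Their log2 fold changes ran from -0.05 to 0.17 with a median of 0.00, and their mean levels ran from 7.44 to 28.8 cRPKM in both genotypes. Ift74, the most abundant, was at 29.84, 28.79 and 27.70 cRPKM in Fat4-/- kidneys, against 29.79, 27.94 and 28.52 in Fat4+/+ kidneys. Ift81, which pairs with Ift74 in the particle to bind tubulin, averaged 14.7 ± 0.935 cRPKM in mutant and 14.5 ± 0.264 in wildtype kidneys (SD, n = 3 each). Both genes therefore kept unequal levels per length in either genotype.

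Ift20, an IFT-B subunit that also sits at the Golgi, was at 25.80, 29.96 and 25.05 cRPKM in mutant kidneys, against 28.64, 27.44 and 26.69 in wildtype kidneys. The groups overlap, with the highest value in mutant embryo 2 (log2 fold change -0.04, 95% interval -0.19 to 0.115). Ift88, whose hypomorphic mouse allele gives polycystic kidneys, was at 10.42, 9.88 and 10.16 cRPKM in mutant and 10.69, 10.55 and 9.99 in wildtype kidneys. Its groups overlap as well, and its interval of -0.13 to 0.07 leaves room only for a small difference on that scale (log2 fold change -0.03, adjusted p = 0.823). Intervals here are for each gene alone, without adjustment for the number of genes.

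Ift27, a small GTPase of the particle, was the least even of the 42 genes in mutant kidneys, at 23.77, 25.74 and 17.44 cRPKM, against 19.81, 19.77 and 18.88 in wildtype kidneys. Mutant embryos 1 and 2 lie above every wildtype embryo and mutant embryo 3 lies below them. Its log2 fold change of 0.17 therefore has a wide interval (-0.105 to 0.44, adjusted p = 0.623). It was picked out after its values were seen. The remaining IFT-B genes, Ift46, Ift52, Ift57, Ift80 and Ift172, had ratios of means between 0.960 and 1.00, and their groups overlap.

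The IFT-A genes, for return transport, held the member with the smallest p. Ttc21b encodes the IFT139 subunit, is mutated in human nephronophthisis, and lies on chromosome 2 (66184327 to 66256617, - strand, GRCm38). It was at 8.78, 8.80 and 9.05 cRPKM in Fat4-/- kidneys, against 10.43, 10.28 and 9.89 in Fat4+/+ kidneys. Every mutant value is below every wildtype value, and the means of 8.88 ± 0.150 and 10.2 ± 0.279 cRPKM (SD, n = 3 each) differ by more than the spread within either group. The log2 fold change was -0.18 (SE 0.0415, 95% interval -0.28 to -0.09), and it did not pass after adjustment over all genes (limma, unadjusted p = 0.00217, adjusted p = 0.0853). Over the alternatives without the Y-linked covariate its adjusted p ran from 0.0835 to 0.251. With that covariate, which rests almost only on mutant embryo 1, the log2 fold change was -0.19.

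Ift122, another IFT-A subunit, pointed the other way at 15.40, 14.80 and 16.20 cRPKM in mutant kidneys, against 14.19, 14.37 and 14.31 in wildtype kidneys. The groups do not overlap, and the wildtype embryos lie very close together (log2 fold change 0.11, adjusted p = 0.350). Ift140 was at 13.72, 13.51 and 14.56 cRPKM in mutant and 13.54, 13.29 and 13.64 in wildtype kidneys, with overlapping groups. Whether Ttc21b and Ift122 differ in their response was not tested.

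The kinesin-2 motor genes were close to equal between genotypes. Kif3a, whose loss in mouse tubules gives cysts, was at 19.88, 20.00 and 19.47 cRPKM in mutant kidneys, against 20.57, 21.03 and 20.31 in wildtype kidneys. The mutant values all lie below the wildtype values, with a mean at 95.9% of the wildtype mean (log2 fold change -0.06, 95% interval -0.14 to 0.03, adjusted p = 0.577). Kif3b, its partner, was at 10.43, 9.68 and 10.34 cRPKM in mutant and 10.76, 10.27 and 10.62 in wildtype kidneys, with overlapping groups (-0.05, adjusted p = 0.699). Per length Kif3b stood below Kif3a in each library.

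Of the 7 Bardet-Biedl genes none was called, with log2 fold changes from -0.02 to 0.15. Bbs12, a chaperonin-like gene that helps assemble the BBSome, had the largest of these. It was at 8.35, 8.24 and 8.20 cRPKM in Fat4-/- kidneys, against 7.12, 7.38 and 7.60 in Fat4+/+ kidneys. All mutant values exceed all wildtype values and lie closer together than those do (log2 fold change 0.15, 95% interval 0.05 to 0.25, adjusted p = 0.172). Bbs1, a BBSome subunit, was at 6.03, 5.99 and 6.06 cRPKM in mutant and 5.53, 5.36 and 5.77 in wildtype kidneys. Its groups do not overlap either (0.10, adjusted p = 0.396). The BBSome genes Bbs2, Bbs4, Bbs5 and Bbs9 and the chaperonin-like Bbs10 had overlapping groups and ratios of means between 0.981 and 1.02.

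Bbs12 is the gene of the set nearest to Fat4. It lies on chromosome 3 (37312554 to 37321453, + strand, GRCm38), 1.57 Mb from Fat4 (38886940 to 39011985). Ift80, the other gene of the set on chromosome 3, lies 29.9 Mb away and had overlapping groups (log2 fold change -0.05). Among the other cilia genes examined, 2 also lie within 20 Mb of Fat4, and in both the groups did not overlap, as in 35.4% of the 99 tested genes of that window and 18.1% of those elsewhere. Sclt1, for a protein of the distal appendages that dock the centriole to the membrane, lies 2.61 Mb away, and Ccdc39, for a ruler protein of motile cilia, 5.04 Mb away.

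Sclt1 fell to 10.97, 10.40 and 9.74 cRPKM in Fat4-/- kidneys, against 13.07, 12.75 and 12.77 in Fat4+/+ kidneys (log2 fold change -0.29, SE 0.0489, adjusted p = 0.0332). The wildtype embryos lie within 0.32 cRPKM of each other, and each mutant embryo lies well below them. Its call ended without any 1 of the 6 libraries (adjusted p 0.0613 to 0.112) and without the filter on low values (0.0879). With the Y-linked score as a covariate, where mutant embryo 1 carries almost all of the comparison, the log2 fold change of Sclt1 was -0.21. Ccdc39 was at 3.14, 3.02 and 2.60 cRPKM in mutant and 3.77, 3.47 and 3.54 in wildtype kidneys (-0.23, adjusted p = 0.166), and 16.9% of its exon bases are shared with Ttc14 on the opposite strand. Within 20 Mb of Fat4, 8 of 99 tested genes were called (8.08%), against 1.39% elsewhere. Genotype and this stretch of chromosome 3 cannot be told apart in these embryos.

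**Figure D3:**
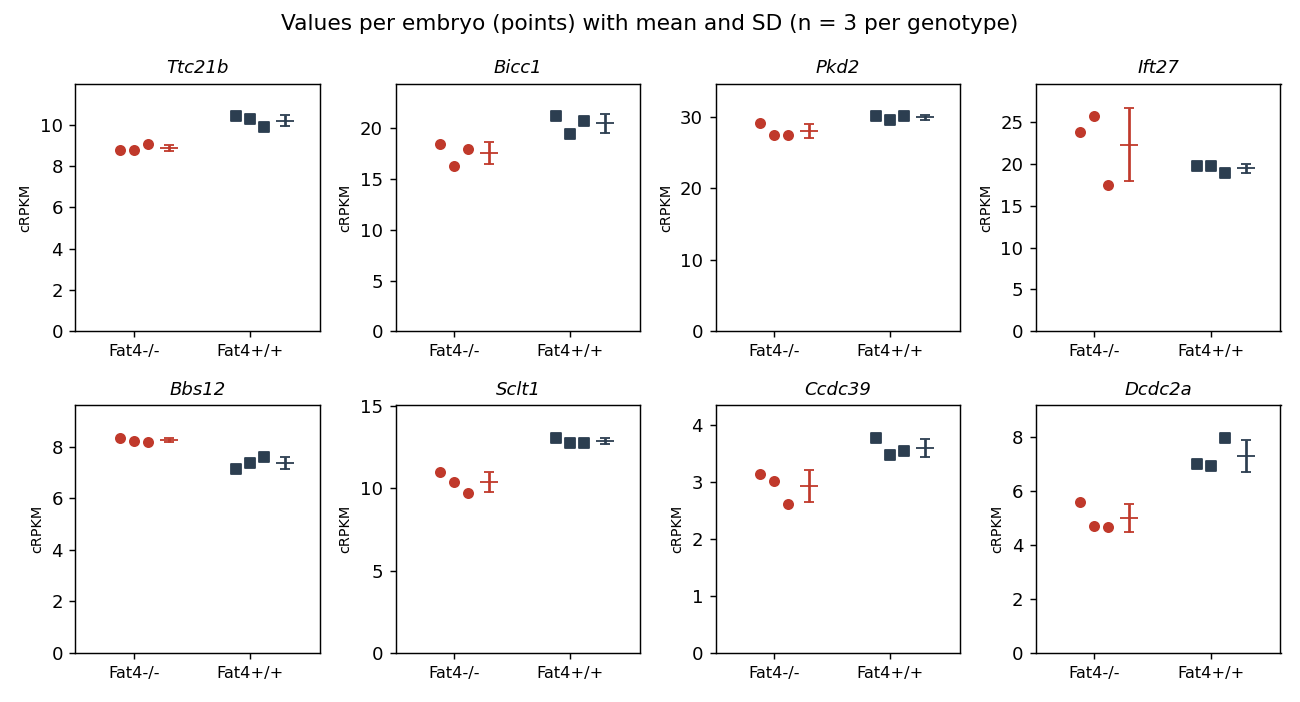
Values of 8 genes in cRPKM for Fat4-/- and Fat4+/+ embryos, with points for embryos and a bar with whiskers for the mean and SD (n = 3 per genotype). These genes were picked with their values known. The genotypes do not overlap for 7 of the 8, against 18.2% of all tested genes and 22.0% of the tested cilia and cystic kidney genes. For Ift27 the mutant values of 23.77, 25.74 and 17.44 cRPKM surround the wildtype values.

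The nephronophthisis and transition zone genes, which build the gate at the cilium base, had 8 members and no call. Their log2 fold changes ran from -0.12 to 0.09 with a median of -0.02. Cep290, a transition zone scaffold, was at 3.60, 3.26 and 3.45 cRPKM in mutant kidneys, against 4.10, 3.35 and 4.09 in wildtype kidneys. Wildtype embryo 2 falls among the mutant embryos, so the groups overlap (-0.12, 95% interval -0.29 to 0.04, adjusted p = 0.539). Iqcb1, which binds Cep290, was at 18.54, 19.04 and 17.14 cRPKM in mutant and 17.87, 16.87 and 16.66 in wildtype kidneys, again overlapping (0.08, adjusted p = 0.544). Nphp4 was the lowest gene of this role at 2.98, 3.03 and 3.65 cRPKM in mutant kidneys, against 2.77, 2.81 and 3.34 in wildtype kidneys. In both genotypes embryo 3 was the highest for Nphp4. Tmem67, Mks1 and Rpgrip1l, mutated in Meckel and Joubert syndromes, had overlapping groups and ratios of means from 0.953 to 1.03.

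The inversin compartment, a proximal segment of the cilium, was covered by 3 genes. Invs, whose loss in mice gives cystic kidneys and reversed left-right asymmetry, was at 5.23, 5.29 and 5.42 cRPKM in mutant kidneys, against 5.88, 5.44 and 5.74 in wildtype kidneys. The highest mutant value lies just below the lowest wildtype value (log2 fold change -0.08, 95% interval -0.19 to 0.025, adjusted p = 0.522). The kinase gene Nek8 and its binding partner Anks6 averaged 6.80 ± 0.145 and 3.78 ± 0.300 cRPKM in mutant kidneys, against 7.07 ± 0.328 and 3.75 ± 0.210 in wildtype kidneys (SD, n = 3 each). Both had overlapping groups. Of the genes at the basal body or in ciliary membrane traffic, Cep164, Ofd1 and the GTPase gene Arl13b likewise overlapped, with log2 fold changes from -0.04 to 0.01. Ofd1 is the 1 gene of the set on the X chromosome. Its levels were 6.50 cRPKM in mutant embryo 1, 6.39 and 5.99 in mutant embryos 2 and 3, where Y-linked genes were near 0, and 6.66, 6.21 and 6.59 in the wildtype embryos.

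The polycystin genes were at ordinary levels and slightly lower in mutant kidneys, without a call. Pkd2, for the channel subunit polycystin-2, was the most abundant of the 42 genes by its mean over all libraries. It lies on chromosome 5 (104459450 to 104505819, + strand, GRCm38). Its values were 29.14, 27.47 and 27.42 cRPKM in Fat4-/- kidneys, against 30.06, 29.56 and 30.12 in Fat4+/+ kidneys. The groups do not overlap, at 93.6% of the wildtype mean (log2 fold change -0.09, 95% interval -0.18 to -0.002, adjusted p = 0.373).

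Pkd1, for the receptor-like polycystin-1 and the most frequent cause of dominant polycystic kidney disease in humans, was at 10.44, 8.72 and 11.34 cRPKM in mutant kidneys, against 10.80, 10.15 and 11.29 in wildtype kidneys. Mutant embryo 2 was the lowest library and mutant embryo 3 the highest, so the groups overlap. The log2 fold change was -0.08 (95% interval -0.27 to 0.115, adjusted p = 0.765) and turned to 0.02 without mutant embryo 2. Pkhd1, for fibrocystin of recessive polycystic disease, is known from the ureteric bud and collecting duct. It was at 0.97, 0.73 and 0.79 cRPKM in mutant and 0.99, 0.87 and 1.16 in wildtype kidneys. Its mean of 0.918 cRPKM fell short of the minimum for testing, and its groups overlap.

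Among the regulators, Bicc1 and Glis3 were lower in mutant kidneys without passing, and Glis2 was close to equal. Bicc1, an RNA-binding protein whose mouse mutations give cystic kidneys, lies on chromosome 10 (70922832 to 71159700, - strand, GRCm38). It was at 18.47, 16.33 and 17.93 cRPKM in Fat4-/- kidneys, against 21.23, 19.49 and 20.76 in Fat4+/+ kidneys. The groups do not overlap, with means of 17.6 ± 1.11 and 20.5 ± 0.90 cRPKM (SD, n = 3 each), and embryo 2 was the lowest in both genotypes. The log2 fold change was -0.21 (SE 0.0552, 95% interval -0.34 to -0.085, limma, unadjusted p = 0.00466, adjusted p = 0.126). Over the alternatives without the Y-linked covariate its adjusted p ran from 0.0433 to 0.315. With that covariate, which rests almost only on mutant embryo 1, the log2 fold change was -0.14.

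Glis3, a zinc finger factor whose loss gives cystic kidneys and neonatal diabetes in mice, was at 1.81, 1.49 and 2.00 cRPKM in mutant kidneys, against 2.02, 2.04 and 2.64 in wildtype kidneys. The groups are separated by 0.02 cRPKM (log2 fold change -0.22, adjusted p = 0.379), and at this level the added 1 cRPKM understates the ratio of means of 0.791. Glis2, a related factor mutated in nephronophthisis, was at 26.17, 26.05 and 26.70 cRPKM in mutant and 25.37, 25.65 and 27.75 in wildtype kidneys. Its groups overlap (0.00, 95% interval -0.10 to 0.105).

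**Figure D4:**
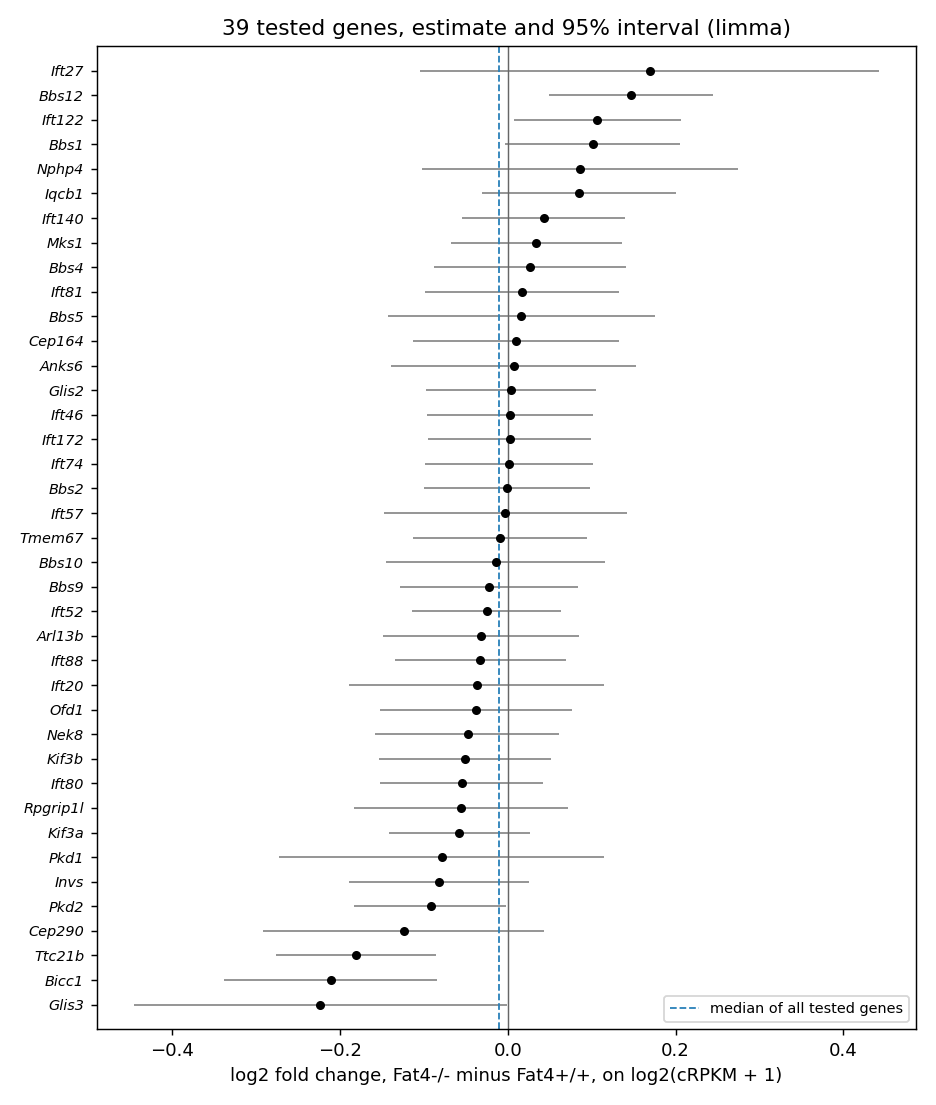
Log2 fold change of Fat4-/- minus Fat4+/+ on log2(cRPKM + 1) for 39 of the 41 tested genes (points) with 95% intervals from limma, each gene alone, and the median of all tested genes as a dashed line. The intervals of Ttc21b, Bicc1 and Bbs12 lie clear of 0, and those of Ift122, Pkd2 and Glis3 narrowly exclude it. None of these genes passed after adjustment over all genes. Ift27 and Glis3 have the widest intervals, with outer bounds at 0.44 and -0.45.

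Markers of the cell types in the kidney were compared between the same libraries. The 10 ureteric epithelium markers summed to 247 to 250 cRPKM in Fat4-/- and 266 to 316 in Fat4+/+ kidneys, with 6 of the 10 lower without overlap (against 11.0% of all tested genes) and none called. Ret and Wnt11, of the same list, averaged 15.9 and 14.2 cRPKM in mutant kidneys, against 14.4 and 14.1 in wildtype kidneys, with overlapping groups. The 8 early nephron and tubule markers summed to 111 to 124 cRPKM in mutant and 116 to 152 in wildtype kidneys, so the sums overlap. Of the 8, 4 were lower without overlap (against 11.0%), and of these Hnf4a and Papss2 were called (against 0.877% of all tested genes called lower). Wnt4 and Pax8, of the same list, had overlapping groups and ratios of means of 1.03 and 0.975. The 7 nephron progenitor markers summed to 339 to 393 cRPKM in mutant and 274 to 304 in wildtype kidneys, with 6 higher without overlap (against 7.23%), of which Eya1 and Osr1 were called (against 0.552% called higher). The 7 stroma markers summed to 390 to 417 cRPKM in mutant and 404 to 531 in wildtype kidneys. Of these 2 were lower without overlap (against 11.0%), Tcf21 and Pdgfra, and Pdgfra was called, while Foxd1 and Meis1 overlapped. All 3 tested podocyte markers were lower without overlap (against 11.0%), with none called. No endothelium, macrophage, erythroid or gonad and adrenal marker was called. Of the 5 endothelium markers 2 were lower without overlap (against 11.0%), Tek and Emcn, while Pecam1, Cdh5 and Kdr overlapped. Of the 3 tested macrophage markers 1 was higher without overlap (against 7.23%), Emr1. Wildtype embryo 3 was the highest library for the ureteric epithelium, early nephron and podocyte sums, and for Pkhd1, Glis3 and Pkd2. Wildtype embryo 1 was the highest for the stroma sum, and for Bicc1, Ttc21b and Cep290. Wildtype embryos 1 and 3 were nearly equal for Pkd2 (30.06 and 30.12 cRPKM) and Cep290 (4.10 and 4.09). In whole kidneys, fewer cells of a type and less RNA per cell cannot be told apart. The part of these shifts in the values of Bicc1, Glis3, Pkd2 and Pkhd1 was not tested.

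The lists of other cilia and cyst genes held 104 names, of which 90 are in the table and 78 were tested. Of these 2 were called, Sclt1 and Dcdc2a (2.56%, against 1.43% of all tested genes). Both were lower in mutant kidneys (against 0.877% called lower), and none was called higher (against 0.552%). Fold changes lay above 0 for 34 of the 78 (43.6%, against 43.2%). Dcdc2a, a doublecortin domain gene whose human counterpart is mutated in nephronophthisis, lies on chromosome 13 (25056004 to 25210706, + strand, GRCm38). It fell to 5.58, 4.70 and 4.67 cRPKM in Fat4-/- kidneys, against 7.00, 6.91 and 7.97 in Fat4+/+ kidneys, and its mean fell by 31.7%. A gap of 1.33 cRPKM separates the groups (log2 fold change -0.47, SE 0.0754, adjusted p = 0.0267). The call ended without mutant embryo 2 (0.111), mutant embryo 3 (0.106) or wildtype embryo 1 (0.0574), and without the filter on low values (0.0948). With the Y-linked score as a covariate, where mutant embryo 1 carries almost all of the comparison, the log2 fold change of Dcdc2a was -0.33. The part in this fall of the marker levels given above was not tested.

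By list, none of 17 tested intraflagellar transport and motor genes outside the set was called, among them the dynein-2 and IFT-A genes Dync2h1, Wdr19 and Wdr35. The smallest p of that list belonged to Kif7, a kinesin of the cilium tip in Hedgehog signalling, at 9.87, 9.83 and 10.17 cRPKM in mutant and 9.09, 9.53 and 8.93 in wildtype kidneys (log2 fold change 0.11, adjusted p = 0.341). None of 8 other Bardet-Biedl genes was called. Rab3ip, which activates the ciliary GTPase Rab8, was at 16.97, 17.14 and 18.06 cRPKM in mutant and 18.69, 20.44 and 22.20 in wildtype kidneys (-0.22, adjusted p = 0.157). Dcdc2a was the 1 call of 16 other transition zone and nephronophthisis genes, and Sclt1 the 1 call of 17 centriole, appendage and ciliary GTPase genes.

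Of 9 tested polycystic disease genes that act outside the cilium none was called. None of 6 tested motile cilium genes was called. Ccdc39, given above, had the smallest p of that list, and Ccdc40 was higher without overlap (log2 fold change 0.15, adjusted p = 0.313). Foxj1, the master regulator of motile cilium genes, was at 0.88, 1.36 and 1.27 cRPKM in mutant and 1.12, 0.91 and 1.16 in wildtype kidneys. Of 5 tested Rfx genes none was called. Rfx5, with the smallest p of them, was lower without overlap. It was at 9.53, 7.77 and 9.24 cRPKM in mutant and 10.06, 10.11 and 10.16 in wildtype kidneys (log2 fold change -0.18, adjusted p = 0.311). Rfx3, known for driving ciliary genes, was at 7.45, 6.65 and 6.76 cRPKM in mutant kidneys, against 6.81, 6.34 and 7.32 in wildtype kidneys, with overlapping groups (0.02, adjusted p = 0.917).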

How the data were processed

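The authors deposited 1 table of RPKM values in a corrected form (cRPKM) with 1 column per library. Reads were trimmed, per the file headers; the correction itself is not described in the labels or headers. Bowtie and mm9 are named in the submitters' processing notes, with no version. Of 22667 genes, 21553 hold values. Columns were matched to samples by the header text in the descriptions. Read totals are unknown. Steps between low values were best matched at 0.902 to 1.04 times the depth of wildtype embryo 1, but only factors near 1 were searched. The match held for 17 of 35 low genes in wildtype embryo 3 and for 22 of 32 in mutant embryo 2, so these depths are rough. Strand handling is not given, and 13 of the 42 genes share exon bases with another gene (1.31% to 10.4% of their own).

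The 12315 genes averaging 1 cRPKM or more were tested with limma 3.58.1 in R 4.3.3 on log2(cRPKM + 1) (trended eBayes, 2-sided, with no term but genotype), adjusted by Benjamini-Hochberg over all of them; the fit was tested on simulated data. The smallest exact permutation p for 3 against 3 is 0.1, which is why this fit is used for single genes. P-values measure the spread between embryos of 1 litter. Alternatives were a pseudocount of 0.1, no filter, quantile normalisation, median centring, the embryo number as a block, the mean of 4 Y-linked genes as a covariate, and leaving out each library. Per-library values are given for a fixed list of genes, the 10 smallest p, the 3 highest and 3 lowest means, and other cilia genes by p; Ift27, Foxj1 and Rfx3 were added after their values were seen. The genes and lists were chosen with earlier results of these data known, and some genes are not reported here. Positions are from GENCODE M21 (GRCm38) by Ensembl identifier and promoters from RefSeq by symbol; the values refer to mm9.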

Additional observations from a re-analysis of the deposited data

How the results depend on the processing

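The count of called cilia and cystic kidney genes stayed at 0 of the 41 or 42 tested under each alternative but 1. With the embryo number as a replicate block 1 was called, Bicc1 (log2 fold change -0.21, adjusted p = 0.0433). That fit called 273 genes in all. The numbers were not taken to pair the embryos in the main fit, as the labels name no shared batch. In the column headers, however, the libraries of same-numbered wildtype and mutant embryos carry consecutive library numbers. Deviations of same-numbered embryos correlated at 0.0985, 0.205 and 0.277 over tested genes, and those of different-numbered embryos at -0.373 to 0.227. Whether the numbers mark a shared batch was not tested. The median log2 fold change of the set ran from -0.02 to 0.01. Calls over all genes numbered 32 without the filter on low values and 24 to 132 with 1 library left out, against 176. Other cilia genes called numbered 0 without the filter and 0 to 1 with 1 library left out, against 2. The fit with the Y-linked score rests almost only on mutant embryo 1 against the wildtype embryos, so those counts leave it out. Some fold changes near 0 changed sign: Ift88 (0.002) and Glis2 (-0.004) with the Y-linked score and, with 1 library left out, Pkd1 (-0.15 to 0.018), Ift20 (-0.11 to 0.011), Glis2 (-0.020 to 0.04) and Ift74 (-0.024 to 0.03). In 12 of 12 alternatives Ttc21b and Bbs12 had the same sign with an unadjusted p under 0.05, as did Bicc1 in 11 of 12. These genes had the smallest p of the set in the main fit, and every alternative reuses the same embryos, so the counts are not separate evidence. With 3 embryos a group, differences of a few percent are not detectable. Ttc21b and Bicc1 stood at 87% and 85.8% of the wildtype mean and did not pass in the main fit, so larger differences can go uncalled as well. The cause of the fold changes given here was not tested.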
